A study of Homo sapiens with 8 samples.

Results

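The transcripts described here are those of 9 enzymes that make or salvage the deoxynucleotides used in DNA synthesis: CAD, DHODH, UMPS, RRM1, RRM2, DUT, TYMS, TK1 and DTYMK. They were listed by name as members of these pathways, with earlier results of these data known, and each symbol was matched to its Ensembl gene in the deposited tables, so that 9 of 63677 counted genes are covered. All 9 were counted in every library, with between 155 (DHODH) and 11508 (RRM2) reads per gene and library, and all 9 passed the filter on low counts in every comparison. Pyrimidines are built from glutamine, bicarbonate and aspartate by CAD, DHODH and UMPS, which end in UMP. Ribonucleotide reductase then removes the 2′ hydroxyl of ribonucleotides, and the thymidylate enzymes supply dTTP while keeping dUTP, which would otherwise be built into DNA, low. Several of these genes are transcribed most strongly as cells enter S phase, and the pathway is the target of long-used antimetabolite drugs.

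RNA-seq was performed on the multiple myeloma (MM) cell lines JJN3 and H929, cultures of malignant plasma cells, after exposure to THZ1, a covalent inhibitor of the transcriptional kinase CDK7, or to its vehicle DMSO. The 4 groups were JJN3 with DMSO, JJN3 with THZ1, libraries labelled H929 with DMSO and libraries labelled H929 with THZ1, with 2 libraries in each. THZ1 was given at 50 nM and RNA was harvested after 24 h in every group. The labels name no engineered change in either line, and both lines carry a translocation of the immunoglobulin heavy chain locus, which activates MAF in JJN3 and FGFR3 in H929. Each line represents a single tumour, and the labels do not say whether the replicates were separate cultures, so the p-values measure only the spread between these libraries, which may be technical. In bulk RNA, fewer cells that express a gene and less of its RNA per cell cannot be told apart, and no spike-in was described, so every level is relative to the rest of the library.

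The libraries held 17476443 to 19194371 counts on genes. The libraries labelled H929 with DMSO stood apart from those labelled H929 with THZ1 in more than the response to a drug. Lambda genes held 99.99% and 97.96% of light chain V gene counts in the DMSO libraries and 0.203% and 0.194% in the THZ1 libraries, although a myeloma clone uses 1 kind of light chain. FGFR3 was at 2.41 and 15.7 CPM (read counts put on a common library size after TMM scaling) with DMSO and at 751 and 713 CPM with THZ1. MAF was at 964.7 and 897.7 CPM with DMSO and at 145.2 and 156.5 CPM with THZ1 under the H929 labels. In JJN3 it was at 858.8 and 877.8 CPM with DMSO and at 526.1 and 565.2 CPM with THZ1. The plasma cell surface gene SLAMF7 was at 0.107 CPM in DMSO replicate 1 and at 9.58 CPM in replicate 2, against 476 and 488 CPM with THZ1. Source and treatment cannot be told apart under the H929 labels, so values there are differences between labelled libraries. In JJN3 the lambda share stayed between 0.244% and 0.369% and FGFR3 at or below 0.105 CPM in all 4 libraries. The plasma cell markers IRF4, XBP1 and SDC1 were expressed in all 8 libraries. The 11 markers of other blood cells summed to 5.18 to 7.89 CPM in JJN3 and 3.03 to 3.48 CPM in the libraries labelled H929 with DMSO. They summed to 35.8 and 35.9 CPM in those labelled H929 with THZ1, nearly all of it CD3E at 34.1 and 34.6 CPM, while CD3D was at 0 there. The 5 stromal and endothelial markers summed to at most 5.18 CPM in any library.

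In JJN3, the transcripts of 6 of the 9 enzymes fell upon THZ1 treatment and none rose. The 3 enzymes of pyrimidine synthesis, RRM2, DTYMK and DUT were lower, whereas RRM1, TYMS and TK1 did not pass the test. The 6 falls compare with 21.3% of the 13984 genes tested that were called lower in JJN3 and 20.6% called higher. Here called means an adjusted p-value under 0.05 (edgeR's quasi-likelihood test, Benjamini-Hochberg over all genes tested) together with a log2 fold change past 0.5 in size. The median log2 fold change of the 9 transcripts was -1.04, against -0.0004 over all genes tested. Together the 9 genes took 0.154% and 0.162% of all counts with DMSO and 0.100% and 0.101% with THZ1. The CPM given here were scaled by TMM over all counted genes of the 8 libraries. The changes with THZ1 were fitted with separate scaling, on the filtered genes of the 4 libraries of each line. Changes read from the CPM therefore differ somewhat from the fitted ones. TK1 in JJN3, for example, averaged 81.0 CPM with DMSO and 76.8 CPM with THZ1, at a fitted log2 fold change of 0.0004.

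**Figure D1:**
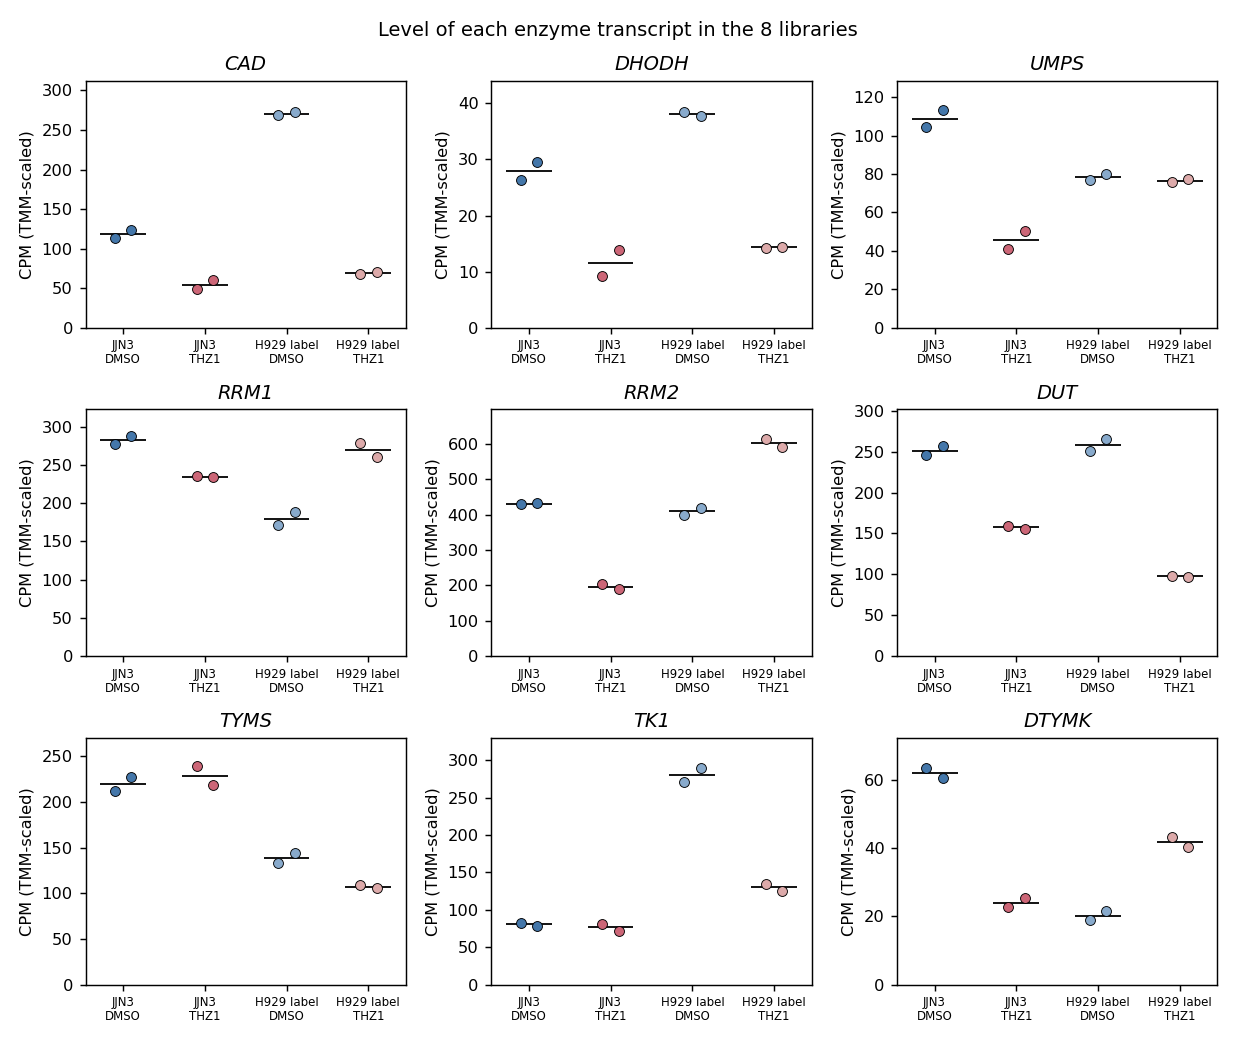
TMM-scaled CPM (vertical axes, starting at 0) of each of the 9 transcripts in the 8 libraries. Points are libraries and lines are means of 2. In JJN3, RRM2 lies at 429 and 432 CPM with DMSO and at 204 and 189 CPM with THZ1, while the TYMS points of both groups overlap.

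In GRCh37, the build of the counts, CAD (ENSG00000084774) lies at chr2:27440237-27466811 on the plus strand, DHODH (ENSG00000102967) lies at chr16:72042487-72061563 on the plus strand and UMPS (ENSG00000114491) lies at chr3:124449280-124468120 on the plus strand. CAD joins carbamoyl phosphate synthetase, aspartate transcarbamylase and dihydroorotase in 1 polypeptide and opens the pathway. CAD was at 113 and 123 CPM in the JJN3 libraries with DMSO and at 49.0 and 60.0 CPM in those with THZ1. Both treated libraries were below both controls. CAD fell by 51.4% (log2 fold change -1.04, SE 0.101, adjusted p = 9.51e-06, quasi-likelihood test of edgeR with the Benjamini-Hochberg adjustment, as for every adjusted p-value that follows). DHODH, the mitochondrial enzyme that oxidises dihydroorotate to orotate, was the least abundant of the 9. It was at 26.3 and 29.5 CPM with DMSO and at 9.19 and 13.8 CPM with THZ1. The treated libraries again lay below the controls, but replicate 1 was well under replicate 2. DHODH had a log2 fold change of -1.20 (SE 0.164, 95% interval -1.56 to -0.84, adjusted p = 9.57e-05 by edgeR), which ranged from -1.52 to -0.95 when single libraries were left out. UMPS, the bifunctional enzyme that turns orotate into UMP, was at 104 and 113 CPM with DMSO and at 41.0 and 50.6 CPM with THZ1, again without overlap. UMPS fell by 55.6% (log2 fold change -1.17, SE 0.103, edgeR adjusted p = 5.21e-06), and the 95% intervals of CAD, DHODH and UMPS overlapped. With both genes scaled by transcript length, UMPS was at 1.01 and 1.00 times the level of CAD with DMSO and at 0.915 and 0.924 times with THZ1.

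The subunits of ribonucleotide reductase among these enzymes, RRM1 (ENSG00000167325, chr11:4115937-4160162, plus strand) and RRM2 (ENSG00000171848, chr2:10260825-10351851, plus strand), differed in size of change. RRM1 encodes the large subunit with the catalytic and regulatory sites, and RRM2 the small subunit that holds the tyrosyl radical and whose protein is made and destroyed with the cell cycle. RRM2 was at 429 and 432 CPM in JJN3 with DMSO and at 204 and 189 CPM with THZ1. The groups were far apart relative to the gap between replicates, and RRM2 fell by 51.8% (log2 fold change -1.05, SE 0.0858, edgeR adjusted p = 3.23e-06). RRM1 was at 277 and 288 CPM with DMSO and at 235 and 234 CPM with THZ1. Both treated libraries were lower than both controls, but the difference was small (log2 fold change -0.19, SE 0.0801, 95% interval -0.37 to -0.01) and did not pass the test (edgeR adjusted p = 0.0601). As a result the ratio of RRM2 to RRM1, each per kb of its canonical transcript, was 1.49 and 1.45 with DMSO and 0.838 and 0.780 with THZ1. Over the union of all annotated exons, a length chosen after the data were seen, the same ratio was 0.716 and 0.695 with DMSO and 0.402 and 0.374 with THZ1. Whether it lies above 1 with DMSO therefore depends on the length. The relative drop cannot depend on it, because a fixed length cancels between the groups. The 95% intervals of both changes, -1.24 to -0.86 for RRM2 and -0.37 to -0.01 for RRM1, did not overlap. The change in this ratio was not tested. RRM2B, an alternative small subunit outside these enzymes, had a log2 fold change of 0.49 in JJN3 (edgeR adjusted p = 0.000688), just below the limit of 0.5.

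Within the thymidylate branch DUT and DTYMK fell, whereas TYMS and TK1 did not pass the test. DUT (ENSG00000128951) lies at chr15:48623208-48635570 on the plus strand, TYMS (ENSG00000176890) lies at chr18:657653-673578 on the plus strand, TK1 (ENSG00000167900) lies at chr17:76170172-76183314 on the minus strand and DTYMK (ENSG00000168393) lies at chr2:242615162-242626359 on the minus strand. DUT, which hydrolyses dUTP to dUMP, was at 245 and 257 CPM in JJN3 with DMSO and at 159 and 156 CPM with THZ1. The groups did not overlap, and DUT fell by 34.0% (log2 fold change -0.60, SE 0.0794, edgeR adjusted p = 7.88e-05), the smallest of the 6 falls. TYMS, thymidylate synthase, which methylates dUMP to dTMP, was at 212 and 227 CPM with DMSO and at 239 and 218 CPM with THZ1. The libraries overlapped, and the log2 fold change was 0.13 (95% interval -0.06 to 0.32, edgeR adjusted p = 0.207). TK1, the cytosolic thymidine kinase that salvages thymidine to dTMP, was at 83.0 and 79.0 CPM with DMSO and at 81.6 and 72.1 CPM with THZ1. The groups overlapped here too, and the log2 fold change of TK1 was 0.0004 (95% interval -0.19 to 0.19, edgeR adjusted p = 0.998). These intervals leave out a fall of the size seen for RRM2. DTYMK, the kinase that carries dTMP from either route to dTDP, was at 63.6 and 60.7 CPM with DMSO and at 22.9 and 25.3 CPM with THZ1. DTYMK fell by 59.1%, more than any other of the 9 (log2 fold change -1.29, SE 0.0927, edgeR adjusted p = 1.62e-06), with no overlap. Per kb of transcript, TYMS stood at 2.17 and 2.44 times the level of DTYMK with DMSO and at 6.80 and 5.62 times with THZ1 (3.31 and 3.71 against 10.3 and 8.55 over the union of exons).

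**Figure D2:**
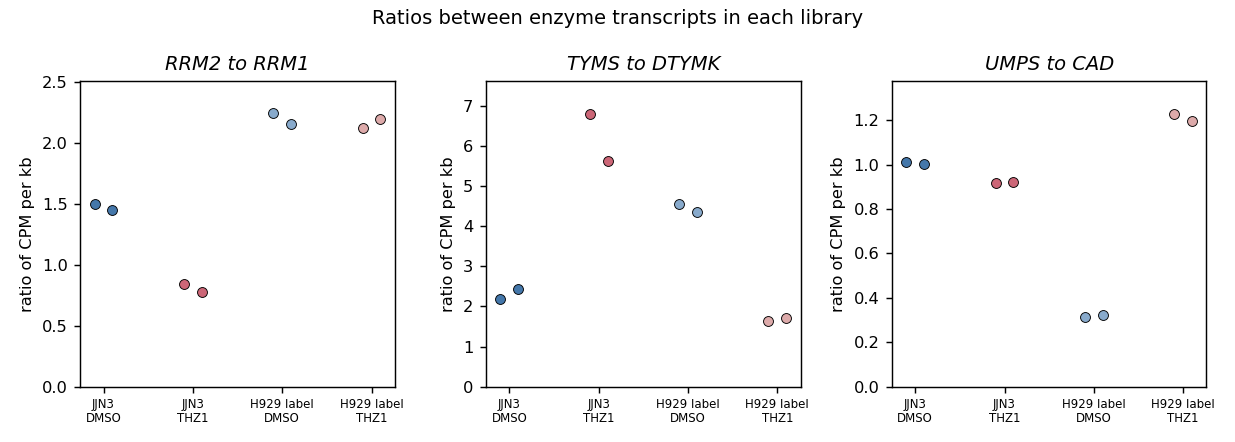
Ratios between pairs of transcripts, each as CPM per kb of its canonical transcript, in every library (points). In JJN3 the RRM2 to RRM1 ratio is 1.49 and 1.45 with DMSO and 0.838 and 0.780 with THZ1, whereas under the H929 labels it is between 2.12 and 2.25 in all 4 libraries.

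Counts of TYMS carry a limit that the others mostly lack. In the GENCODE annotation of GRCh37, 967 of its exon bases (39.9%) are shared with ENOSF1 and 193 (7.97%) with TYMSOS, both on the opposite strand. ENOSF1 had 1107 and 1170 counts in JJN3 with DMSO and 1004 and 1023 with THZ1, and TYMSOS at most 75 counts in any library. The strand setting of the counting was not given in the sources used here, so how reads in the shared bases were assigned cannot be told. DUT shares 533 exon bases (14.5%) with DUT-AS1, which had at most 11 counts, and RRM1 shares 63 bases (1.49%) with RRM1-AS1, which had 0. The pseudogenes named after RRM2 and DUT in the tables (13 identifiers) held at most 9 counts each in any library.

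The promoters of RRM2 and DTYMK, which fell in JJN3, and of TK1 and TYMS, which did not pass the test, are shown so that enzymes with and without a call in JJN3 can be set side by side. Each sequence is the stretch of GRCh37 just upstream of the start of the canonical transcript, 5′ to 3′ on the strand of the gene. RRM2 (chr2:10262716-10262865, plus strand), DTYMK (chr2:242626231-242626380, minus strand), TK1 (chr17:76183134-76183283, minus strand) and TYMS (chr18:657503-657652, plus strand) are given over 150 bases. Capitals mark CCAAT or its reverse complement, TTTAAA or TTTGAA in either direction, and TTTNNCGC in either direction. TTTAAA and TTTGAA are letters found in the cell cycle homology region (CHR) but not only there, and TTTNNCGC has letters found in E2F sites.
RRM2 promoter: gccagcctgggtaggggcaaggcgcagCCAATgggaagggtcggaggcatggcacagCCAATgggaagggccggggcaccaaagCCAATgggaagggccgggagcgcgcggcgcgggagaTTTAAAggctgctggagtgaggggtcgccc
DTYMK promoter: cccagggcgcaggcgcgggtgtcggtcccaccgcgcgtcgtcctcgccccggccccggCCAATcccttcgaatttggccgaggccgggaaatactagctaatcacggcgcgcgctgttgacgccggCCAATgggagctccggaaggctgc
TK1 promoter: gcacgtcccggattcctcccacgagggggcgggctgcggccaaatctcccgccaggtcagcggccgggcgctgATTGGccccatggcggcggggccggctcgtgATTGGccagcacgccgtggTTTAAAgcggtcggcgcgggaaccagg
TYMS promoter: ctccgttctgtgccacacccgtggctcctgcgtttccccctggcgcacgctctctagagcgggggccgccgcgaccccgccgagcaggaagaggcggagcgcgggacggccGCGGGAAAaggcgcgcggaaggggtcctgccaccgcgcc
RRM2 held CCAAT at 123, 93 and 66 bases before the start and TTTAAA at 30 bases. TK1 held the reverse complement of CCAAT at 77 and 46 bases before the start and TTTAAA at 27. RRM2, which fell, and TK1, which did not pass the test, thus both held TTTAAA and CCAAT, the latter in different number and direction. A link between these letters and the calls was not tested. DTYMK held CCAAT at 92 and 24 bases before the start, and TYMS held only the E2F-like letters, at 39 bases. In windows from 250 bases before to 50 after the start, CCAAT was found on either strand in 6 of the 9 genes and in 36.0% of 19862 windows of protein-coding genes. TTTAAA or TTTGAA was found in 3 of the 9 (RRM2, TK1 and UMPS) and in 18.4% of all windows. TTTNNCGC was found in 1 (TYMS) and in 8.79%, the E-box CACGTG in 1 (DHODH) and in 8.77%, and the GC box GGGCGG in 5 and in 61.5%. Annotated transcripts of RRM2, DTYMK and TK1 also start further upstream, inside or before the stretches shown. A match of letters is a description and does not say that a factor binds.

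The other genes of nucleotide metabolism in JJN3 were described from lists of pathway members. The counts below stand against 21.3% of all genes tested called lower in JJN3 and 20.6% called higher, and no list was tested against these shares. Of 11 genes of the folate and thymidylate cycle, which regenerates the folate that TYMS consumes, 5 fell and none rose. The largest fall was that of SLC19A1, the reduced folate carrier (log2 fold change -0.85, edgeR adjusted p = 0.000688). Of 11 genes tested (12 listed) that balance or degrade deoxynucleotides, 4 fell and 1 rose. The falls were led by NT5C (-1.20), a nucleotidase, and DCTPP1 (-1.14), a dCTP pyrophosphatase. TYMP, thymidine phosphorylase, rose by a log2 fold change of 1.21 (SE 0.363, edgeR adjusted p = 0.0137) from counts of only 19 and 13 to 36 and 29. Of 12 genes of nucleoside salvage and uptake, 4 fell and none rose, with the nucleoside transporters SLC29A2 (-1.67) and SLC29A1 (-1.31) the lowest. CTPS1 (-0.99), which makes CTP from UTP, and NME6 (-1.03) led the 4 falls among 8 genes tested (10 listed) of CTP synthesis and nucleotide kinases. Among 15 genes tested (16 listed) of purine synthesis 7 fell, led by ADSL (-1.29) and IMPDH2 (-1.14), and 1 rose, the guanylate kinase GUK1 (0.68). The medians of these lists were -0.55, -0.09, -0.12, -0.47 and -0.41 in the order given, each nearer to 0 than the -1.04 of the 9 enzymes, and the difference between lists was not tested.

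**Figure D3:**
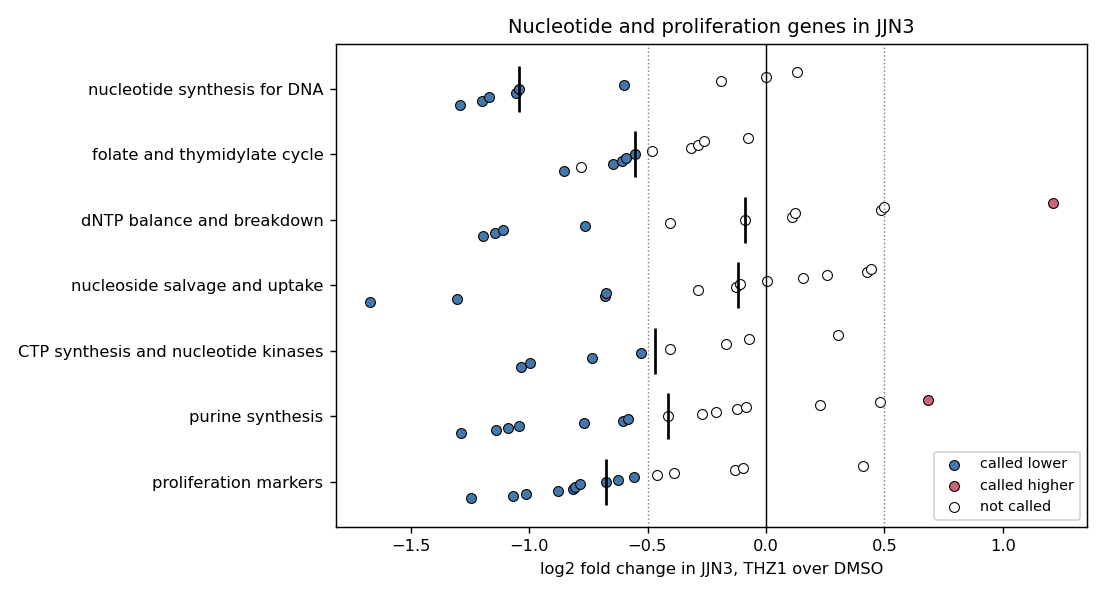
Log2 fold change in JJN3 (THZ1 over DMSO, horizontal axis) of each tested gene of the 9 enzymes, of the other nucleotide lists and of the proliferation markers. Points are genes, filled where called, vertical bars are list medians and dotted lines are the limits at 0.5. The median is -1.04 for the 9 enzymes and -0.68 for the proliferation markers.

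Most markers of proliferation were also called lower in JJN3. Of 15 such markers 10 fell and none rose, against 21.3% of all genes tested called lower in JJN3 and 20.6% called higher. Their median log2 fold change was -0.68, and their summed level was 5799 and 6024 CPM with DMSO and 3829 and 3915 CPM with THZ1. E2F1, the S phase transcription factor, changed by -1.25, CCNB1 by -1.07, the helicase subunit MCM6 by -1.01 and PCNA by -0.68 on the log2 scale. MKI67 had a log2 fold change of 0.41 (edgeR adjusted p = 0.0122), below the limit of 0.5, and MCM2 (-0.10) and MCM5 (-0.13) did not pass the test. The 8 plasma cell markers summed to 2111 and 2113 CPM with DMSO and to 1438 and 1423 CPM with THZ1. Of them 5 were lower and none higher, against the same shares of all genes. PRDM1 had a log2 fold change of 0.49 (edgeR adjusted p = 0.000843), just below the limit of 0.5. The part of these shifts in the falls of the 9 enzymes was not tested.

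Between the libraries labelled H929, 4 of the 9 transcripts were lower with the THZ1 label (CAD, DUT, DHODH and TK1) and 3 were higher (DTYMK, RRM1 and RRM2). Of the 14863 genes tested there, 32.6% were called lower and 33.1% higher, so that 3 and 4 of 9 are shares near this background. CAD was at 268 and 272 CPM with DMSO and at 67.6 and 70.7 CPM with THZ1. This was the largest difference of the 9 (log2 fold change -1.98, SE 0.0552, edgeR adjusted p = 2.47e-14). DHODH was at 38.5 and 37.8 CPM with DMSO and at 14.3 and 14.5 CPM with THZ1, a log2 fold change of -1.42 (SE 0.0884, edgeR adjusted p = 3.73e-10). UMPS, in contrast, was at 76.8 and 80.1 CPM with DMSO and at 75.9 and 77.2 CPM with THZ1. The groups overlapped for UMPS, and the log2 fold change was -0.05 (95% interval -0.18 to 0.08, edgeR adjusted p = 0.426). The length-scaled ratio of UMPS to CAD therefore went from 0.313 and 0.322 with DMSO to 1.23 and 1.20 with THZ1.

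Both subunits of ribonucleotide reductase among these enzymes were higher in the THZ1-labelled H929 libraries. RRM1 was at 172 and 188 CPM with DMSO and at 278 and 261 CPM with THZ1 (log2 fold change 0.57, SE 0.0580, edgeR adjusted p = 1.84e-07). RRM2 was at 399.5 and 419.5 CPM with DMSO and at 612 and 592 CPM with THZ1 (log2 fold change 0.54, SE 0.0543, edgeR adjusted p = 1.51e-07). Groups overlapped for neither gene, but both values lay just past the limit of 0.5. Without H929 DMSO replicate 1 they were 0.49 and 0.49, so that only 1 of the 9, DTYMK, was then called higher. Because these subunits differed by similar amounts, the ratio of RRM2 to RRM1 per kb was 2.25 and 2.15 with DMSO and 2.12 and 2.19 with THZ1, with overlap. The alternative small subunit RRM2B was called higher there too (log2 fold change 0.77, edgeR adjusted p = 4.51e-08).

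In the thymidylate branch under the H929 labels, DUT was at 251 and 266 CPM with DMSO and at 97.9 and 96.9 CPM with THZ1. The groups lay far apart (log2 fold change -1.42, SE 0.0545, edgeR adjusted p = 1.02e-12). TK1 was at 271 and 289 CPM with DMSO and at 134 and 125 CPM with THZ1, a log2 fold change of -1.12 (SE 0.0564, edgeR adjusted p = 2.7e-11). TYMS was at 133 and 144 CPM with DMSO and at 109 and 106 CPM with THZ1. All TYMS libraries of the THZ1 label were lower, but its log2 fold change of -0.38 (SE 0.0579, edgeR adjusted p = 1.56e-05) was within the limit of 0.5 and was not called. DTYMK was at 19.0 and 21.6 CPM with DMSO and at 43.5 and 40.5 CPM with THZ1, higher by 1.03 on the log2 scale (SE 0.0887, edgeR adjusted p = 2.12e-08). In JJN3 the same gene had been the one with the largest fall. The proliferation markers were split under these labels, with 6 of 15 lower and 3 higher, against 32.6% and 33.1% of all genes tested. Those called higher were CCNE1 (1.53), MKI67 (1.24) and E2F1 (1.22), the last of which fell in JJN3. The 15 markers summed to 4665 and 4915 CPM with DMSO and to 3358 and 3249 CPM with THZ1. Plasma cell markers summed to 1771 and 1907 CPM with DMSO and to 7023 and 6877 CPM with THZ1. They did not move together, since 6 of the 8 were called higher and 2 lower, CD38 (-0.58) and MZB1 (-1.07). The part of the proliferation and plasma cell markers in the differences of the 9 enzymes was not tested.

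**Figure D4:**
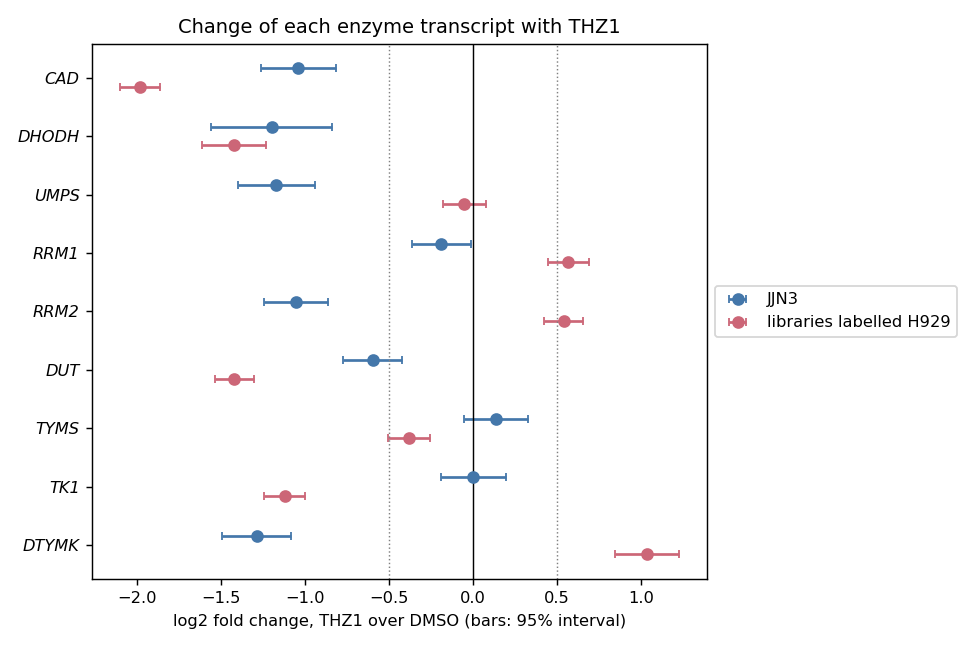
Log2 fold change (THZ1 over DMSO, horizontal axis) of each of the 9 transcripts in JJN3 (blue) and between the libraries labelled H929 (red), with 95% intervals; dotted lines are the limits at 0.5. DTYMK lies at -1.29 in JJN3 and at 1.03 under the H929 labels, and DHODH at -1.20 and -1.42.

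The difference between the labelled responses, tested as an interaction over all 8 libraries, passed an adjusted p-value of 0.05 for 8 of the 9 transcripts. Over all 16122 genes tested the share was 62.0%, with 32.3% positive and 29.7% negative, and the contrast holds the difference in source of the libraries labelled H929. It was positive, with a higher value under the H929 labels, for DTYMK (2.33, SE 0.129), RRM2 (1.60, SE 0.101), UMPS (1.13, SE 0.123) and RRM1 (0.77, SE 0.0996), with edgeR adjusted p-values of 2.73e-10, 1.14e-09, 7.42e-07 and 5.08e-06. It was negative for TK1 (-1.11, SE 0.111), CAD (-0.93, SE 0.120), DUT (-0.81, SE 0.0947) and TYMS (-0.51, SE 0.105), with edgeR adjusted p-values of 2.45e-07, 4.61e-06, 1.5e-06 and 0.000553. For DHODH the difference was -0.22 (95% interval -0.62 to 0.19, edgeR adjusted p = 0.341). The DHODH value rested on the JJN3 libraries with THZ1, since without replicate 1 it was -0.45 (edgeR adjusted p = 0.0182) and without replicate 2 it was 0.12.

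Without drug, the libraries labelled H929 differed from JJN3 in 5 of the 9 transcripts, against 61.5% of the 16122 genes tested (30.7% lower and 30.8% higher). TK1 (log2 difference 1.82, SE 0.0787) and CAD (1.23, SE 0.0819) were higher, and DTYMK (-1.58, SE 0.0912), TYMS (-0.63, SE 0.0744) and RRM1 (-0.62, SE 0.0707) were lower (edgeR adjusted p at most 9.89e-07 for each). RRM2 (-0.04, 95% interval -0.19 to 0.11) and DUT (0.07, 95% interval -0.07 to 0.21) did not pass the test. UMPS (-0.44) and DHODH (0.48) passed the adjusted p-value but not the limit of 0.5. Leaving out JJN3 DMSO replicate 1 brought UMPS to -0.50, just past the limit, and leaving out JJN3 DMSO replicate 2 brought DHODH to 0.56 (0.50, also just past the limit, without JJN3 THZ1 replicate 1). Among libraries with THZ1, 6 of the 9 differed, against 63.9% of all genes tested (32.3% lower and 31.6% higher). RRM2 (1.56), DTYMK (0.75), TK1 (0.71) and UMPS (0.69) were higher in the libraries labelled H929, and TYMS (-1.14) and DUT (-0.74) were lower (edgeR adjusted p at most 3.1e-06 for each). CAD (0.29), DHODH (0.27) and RRM1 (0.15) were not called, but DHODH was called at 0.59 without JJN3 THZ1 replicate 2. DTYMK was thus below JJN3 in the libraries labelled H929 with DMSO and above it in those with THZ1. Source and treatment cannot be told apart between these labelled libraries.

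Levels can be compared between genes only per length, here as CPM per kb of the canonical GENCODE transcript. In JJN3 with DMSO the order was TYMS (136), RRM2 (132), DUT (117), RRM1 (89.8), DTYMK (59.2), TK1 (56.6), UMPS (16.3), CAD (16.2) and DHODH (5.98 CPM per kb). The libraries of TYMS and RRM2, of DTYMK and TK1, and of UMPS and CAD overlapped, so those neighbours were not separated. With THZ1 TYMS stayed at the top (142 CPM per kb), RRM1 (74.7) and DUT (73.5) came next, and RRM2 (60.4) followed them. DTYMK (22.9) was then below TK1 (53.7), and CAD (7.48) and UMPS (6.88) overlapped. Under the H929 labels TK1 led with DMSO (195 CPM per kb) and RRM2 with THZ1 (185 CPM per kb). With DMSO RRM2 (126) and DUT (121) overlapped there, and with THZ1 TK1 (90.8) and RRM1 (85.8) did. DHODH was lowest in all 4 groups. The order depends on the length used, because RRM2 has annotated exons far outside its canonical transcript. Over the union of all exons RRM2 was at 47.0 CPM per kb in JJN3 with DMSO, below TYMS (90.8), DUT (68.4) and RRM1 (66.7), and in the libraries labelled H929 with THZ1 it was at 65.8 CPM per kb, below TK1 (70.5).

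**Figure D5:**
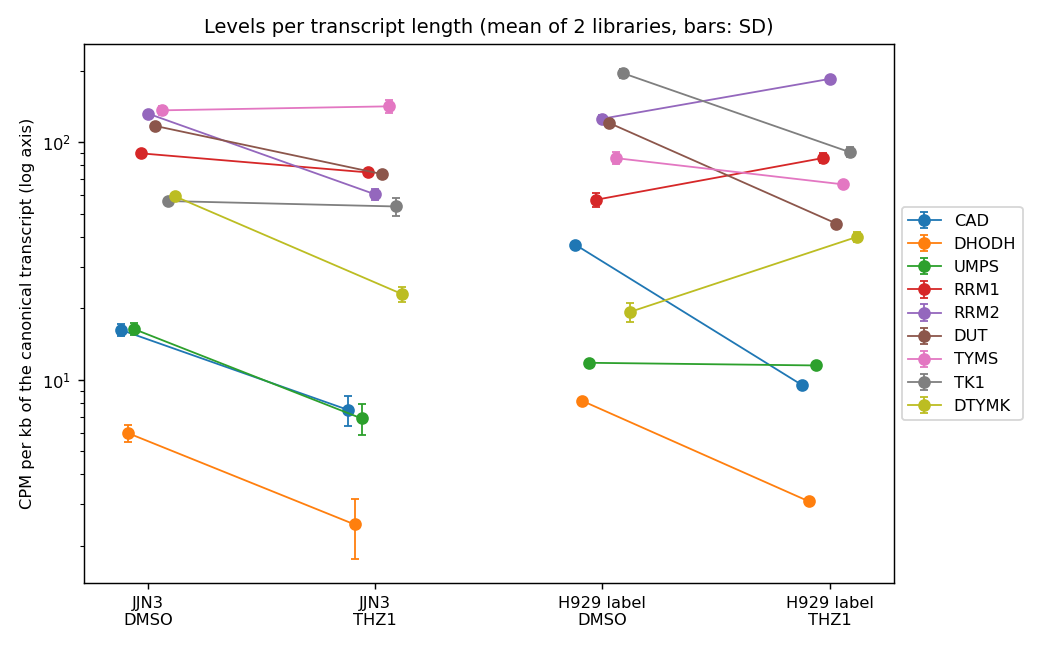
Level of each transcript as CPM per kb of its canonical transcript (vertical log axis), mean of 2 libraries with SD, in the 4 groups. TYMS leads in both JJN3 groups (136 and 142), and DHODH is lowest in every group (2.46 to 8.17).

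Patterns over the 8 libraries were compared by the root mean square (RMS) difference of log2 CPM, each gene centred on its own mean. The libraries fall into separate sources, so a small difference is a description and says nothing of shared control. Among the 9 the closest pair was CAD and DHODH (RMS 0.290), followed by RRM2 and UMPS (0.397), and the farthest was TK1 and DTYMK (1.23). Over 8958 genes whose log2 CPM averaged 3 or more, the nearest to RRM1 were TIPRL (0.0457) and GRSF1 (0.0667), and those nearest to UMPS were KNSTRN (0.0520) and CUTC (0.0617). TYMS was nearest to CAMTA1 (0.0639) and FAM179B (0.0689), and RRM2 to PCK2 (0.0894) and TCEAL8 (0.0922). DUT was nearest to LARS (0.0784) and KARS (0.0815), both aminoacyl-tRNA synthetases. CAD was nearest to GNPDA1 (0.108) and PQBP1 (0.116), and DHODH to SRRD (0.112) and JAGN1 (0.115). TK1 was nearest to GTF3C4 (0.116) and H1F0 (0.148), and DTYMK to HPDL (0.106) and R3HDM2 (0.144). None of the 9 enzymes was among the nearest genes of another.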

How the data were processed

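Per the labels and the study's methods, total RNA from JJN3 and H929 cells was sequenced as single-end reads, and the authors aligned them to hg19 with STAR 2.5.2a, retained uniquely mapped reads and counted them per Ensembl gene with featureCounts. The deposited values used here are these raw counts, without normalization. The authors' own DESeq2 comparison tables (fold changes and p-values) were used only for the gene symbols of the JJN3 table.

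Counts were tested with edgeR 4.0.16 in R 4.3.3 (TMM, filterByExpr, quasi-likelihood test, Benjamini-Hochberg over all genes tested) within the 4 libraries of each line, and over all 8 libraries for the interaction and for differences between lines. Calls needed both an adjusted p-value below 0.05 and a log2 fold change past 0.5 in size (for the interaction the adjusted p-value alone). The fits were tested on simulated data. Alternatives were DESeq2 1.42.0, scaling by its size factors or by total counts, other filters, a fold limit of 1, all 8 libraries in one fit, a replicate block and leaving out each library. Transcript lengths, overlaps and promoters came from GENCODE 44 lifted to GRCh37, not the authors' annotation. For each enzyme the 2 genes with the smallest RMS difference were named, and from each list up to 2 called falls and 2 called rises by size in JJN3, of which 1 is not reported here. The 9 enzymes, the lists and these rules were chosen with earlier results of these data known. Total counts of 17476443 to 19194371 put 3 counts, the limit that a count of 0 allows, at 0.156 to 0.172 CPM, for counting error only.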

Additional observations from a re-analysis of the deposited data

Results flagged for a closer look

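For 8 of the 9 enzymes the difference between THZ1 and DMSO was not the same under the H929 labels as in JJN3, by the interaction test over all 8 libraries (edgeR, Benjamini-Hochberg). The H929 value minus the JJN3 value, on the log2 scale, was 2.33 for DTYMK, 1.60 for RRM2, 1.13 for UMPS and 0.77 for RRM1. It was -0.51 for TYMS, -0.81 for DUT, -0.93 for CAD and -1.11 for TK1. DTYMK, RRM2 and RRM1 had opposite signs, lower in both THZ1 libraries of JJN3 and higher in both THZ1 libraries labelled H929, although RRM1 was not called in JJN3. The interaction passed for 62.0% of all genes tested, and the libraries labelled H929 with DMSO and with THZ1 differ in light chain use and FGFR3, so a difference in response and a difference in source cannot be told apart.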

How the results depend on the processing

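Each count of enzymes called was recomputed under up to 8 other settings and without each library, where the remaining library of a group was assumed to vary like the others. In JJN3 the counts stayed at 6 lower and 0 higher when libraries were left out. Under the H929 labels 4 stayed lower, and 1 to 3 were higher, with 1 only without H929 DMSO replicate 1, where RRM1 and RRM2 came to 0.49 and the cause was not tested. The interaction was called for 8 to 9, the difference between lines for 5 to 6 with DMSO and for 6 to 7 with THZ1. With a limit of 1 on the log2 fold change, 5 were lower in JJN3 (DUT, at -0.60, was not), 1 was higher under the H929 labels, 3 differed between lines with DMSO and 2 with THZ1. Of 576 recomputed values of single enzymes, 561 kept their direction and side of the threshold, 8 changed sign, 5 became calls and 2 ceased to be. The sign changes were those of TK1 in JJN3, near 0 throughout (-0.0195 with DESeq2, -0.10 with total counts, -0.0409 without a filter, -0.0016 with the block, -0.0148 with all 8 libraries, and -0.10 to 0.10 without single libraries), and DHODH in the interaction, 0.12 without JJN3 THZ1 replicate 2 (-0.45 to 0.12 without single libraries). Scaling by total counts moved the median of all genes in JJN3 from -0.0004 to -0.10 and the calls from 2972 lower and 2877 higher to 3639 and 2353, and the interaction median from 0.04 to 0.18. Libraries with the same replicate number did not deviate together (correlation across genes 0.0112 in JJN3 and -0.0094 under the H929 labels). With the replicate number as a block the counts of enzymes were unchanged at 6, 0, 4, 3, 8, 5 and 6 in the order above, and 3013 genes were lower and 2889 higher in JJN3. With 2 libraries a group, small differences such as that of RRM1 in JJN3 were not resolved. The log2 fold change of RRM1 in JJN3 ranged from -0.29 to -0.17 over the alternatives, always within the limit of 0.5. Whether its adjusted p-value was under 0.05 depended on the processing.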
